A study of Mus musculus with 5 samples.

Results

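The enteroendocrine lineage of the gut was followed through 10 genes of the 18418 that the deposited tables list for mouse intestinal organoids, which are cultures of gut epithelium grown as small hollow bodies. The members are a list of named genes, and no cut on their values entered the rule. Neurog3, Insm1, Pax4 and Fev are the 4 early factors, and Chga, Chgb, Tph1, Cck, Ghrl and Cpe are the 6 mature products. All 10 are protein-coding genes, and each was found in at least 1 library. They were read in every well that held at least 1000 unique molecular identifiers (UMIs, tags that mark single transcript molecules), spike-in RNAs left out.

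Enteroendocrine cells are rare, hormone-releasing cells of the intestinal epithelium. They arise from secretory progenitors in the crypt when Neurog3, a basic helix-loop-helix transcription factor, is switched on for a short time, and further transcription factors then steer the cells to a subtype. Mature cells store peptide hormones or serotonin in dense-core vesicles that are rich in granin proteins, and they release them into the tissue and the blood.

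Each group was 1 library of 1 plate of 384 wells, filled with sorted single cells. Cys and Bud are small intestinal organoids of genotype Lkb1 -/-, named here by marks in their titles that the labels do not explain. The het library came from small intestinal organoids of genotype Lkb1 +/-, the fetal library from organoids of fetal intestine of WT genotype, and the WT library from small intestinal organoids of WT genotype. All 5 were grown in the same medium with Egf, R-spondin1 and Noggin. Lkb1 is the gene also called Stk11. The labels give no strain, no age beyond fetal, no edited exon and no word on clones, and nothing in them ties libraries to separate animals or cultures. No group was replicated, since each rests on a single library, and so no test between groups could be made. Every interval below is a 95% counting interval and covers counting error only.

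The libraries kept 359 cells in Cys, 318 in Bud, 351 in het, 371 in fetal and 302 in WT, with 4035219 to 5865507 UMIs each and a median of 10414 to 14637 UMIs per cell. Wells in which the nuclear RNA Kcnq1ot1, often high in damaged cells, made up over 2% of UMIs numbered 22 in Cys, 43 in Bud, 60 in het, 2 in fetal and 22 in WT. Stk11 had 9.03 CPM (UMIs of the gene per 1000000 UMIs of the library) in Cys, 11.7 in Bud, 14.1 in het, 16.0 in fetal and 20.6 in WT. The intervals of Cys and Bud lay below that of WT. A tag near the 3′ end may lie outside the edited part, so this level does not check the genotype. Epcam, a marker of all gut epithelium, had a UMI in 85.2% to 97.0% of the cells of each library. Cdx2, the factor that defines intestinal identity, stood at 9.84 CPM in Cys, 41.7 in Bud, 36.2 in het, 5.80 in fetal and 44.4 CPM in WT, so it was low in the fetal library and in Cys. Markers of immune cells and of mesenchymal and neural cells summed to at most 27.4 CPM over the 8 immune genes and 6.31 CPM over the 13 mesenchymal and neural genes in any library.

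The 384 well numbers are shared by all 5 libraries, and 212 of them were kept in all of them. In Cys, the 10 early factor UMIs lay in 8 wells and had 1 read each. In 7 of those wells, with 9 of the 10 UMIs, the well of the same number in the WT library was a cell rich in early factors, while 19 of the 359 kept Cys wells (5.29%) shared a number with such a WT cell. The low Cys counts below are therefore given with this fact, and its part in them was not tested. Leaving out every UMI in a well whose same-numbered well in another library held at least 10 times as many of that gene changed no call of a member in any comparison below. Leaving out early factor UMIs of Cys can only lower their counts there, so by itself it could not undo a lower call. The check therefore says little on the folds given for these factors in Cys.

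The genes lie on 8 chromosomes of the build GRCm38, in the GENCODE M21 annotation. Neurog3 is at chr10:62133090-62134763 on the plus strand, Insm1 at chr2:146221921-146225020 (plus), Pax4 at chr6:28442334-28449353 (minus) and Fev at chr1:74881509-74885419 (minus). Chga is at chr12:102554969-102565028 (plus), Chgb at chr2:132781278-132795079 (plus) and Tph1 at chr7:46644641-46672537 (minus). Cck is at chr9:121489824-121495694 (minus), Ghrl at chr6:113716119-113719880 (minus) and Cpe at chr8:64592542-64693054 (minus). Neurog3 lies within Fam241b, a gene on the other strand that had 50 UMIs in Cys, 99 in Bud, 87 in het, 146 in fetal and 92 in WT. The sources used here do not say how the authors treated strand. Fam241b had its highest count in the fetal library, where Neurog3 had no UMI.

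The promoters of 3 members are shown because they mark the split on which the results turn, with Neurog3 at a high level in Bud and the granins Chga and Chgb without a UMI there. The windows are from RefSeq, build GRCm38.p6, and run 5′ to 3′ on the gene's strand from 250 bases before a start listed by RefSeq to 50 bases after it. Neurog3 is at chr10:62132840-62133139 (plus), Chga at chr12:102554691-102554990 (plus) and Chgb at chr2:132781392-132781691 (plus). Capitals mark matches on either strand to CANNTG, the core of sites for basic helix-loop-helix factors, and to TGACGT, the core of the cAMP response element.
Neurog3 promoter: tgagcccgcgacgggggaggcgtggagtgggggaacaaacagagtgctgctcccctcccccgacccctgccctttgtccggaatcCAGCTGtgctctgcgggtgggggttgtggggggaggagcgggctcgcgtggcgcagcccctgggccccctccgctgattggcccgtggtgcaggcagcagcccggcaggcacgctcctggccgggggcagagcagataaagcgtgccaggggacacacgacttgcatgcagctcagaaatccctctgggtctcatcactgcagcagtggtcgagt
Chga promoter: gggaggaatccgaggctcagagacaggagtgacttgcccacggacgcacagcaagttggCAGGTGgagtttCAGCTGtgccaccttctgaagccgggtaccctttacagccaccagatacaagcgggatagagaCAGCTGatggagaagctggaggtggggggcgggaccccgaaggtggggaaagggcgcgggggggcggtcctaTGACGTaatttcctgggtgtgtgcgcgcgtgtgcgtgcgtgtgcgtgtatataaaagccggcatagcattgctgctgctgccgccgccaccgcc
Chgb promoter: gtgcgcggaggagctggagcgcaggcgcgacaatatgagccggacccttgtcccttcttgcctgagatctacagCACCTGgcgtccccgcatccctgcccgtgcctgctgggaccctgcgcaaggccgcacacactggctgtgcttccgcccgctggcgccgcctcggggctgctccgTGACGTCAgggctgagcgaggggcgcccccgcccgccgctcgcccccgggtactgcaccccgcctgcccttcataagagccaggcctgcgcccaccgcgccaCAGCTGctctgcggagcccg
The Neurog3 window held 1 match to CANNTG and 0 to TGACGT. The Chga window held 3 matches to CANNTG and 1 to TGACGT, 44 bases before the start. The Chgb window held 2 matches to CANNTG and the palindrome TGACGTCA, in which TGACGT matches on both strands, 72 bases before the start. Of all 32851 windows in that table, 72.3% held CANNTG, 7.51% held TGACGT and 1.79% held TGACGTCA. Of the 10 members, 7 had a window in the table. These matches describe letters and are not evidence of binding.

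Neurog3 was abundant in 3 of the 5 libraries. It had 3 UMIs in Cys, 539 in Bud, 451 in het, 0 in fetal and 332 in WT, which is 0.602 CPM in Cys, 128 in Bud, 103 in het, 0 in fetal and 82.3 in WT. The levels of Bud, het and WT followed in that order with intervals that did not overlap (118 to 140 CPM in Bud, 93.4 to 113 in het and 73.7 to 91.6 in WT), while the intervals of Cys and fetal overlapped each other near 0. A Neurog3 UMI was seen in 3 cells of Cys, 45 of Bud, 32 of het, 0 of fetal and 28 of WT. With every cell thinned to 1000 UMIs, the share of Neurog3-positive cells was 0% in Cys, 9.43% in Bud (6.46% to 13.2%), 4.84% in het (2.85% to 7.64%), 0% in fetal and 6.62% in WT (4.09% to 10.0%). Taken as at most 3 cells with a UMI, the count of 0 allows a share of up to 0.836% in Cys and 0.809% in fetal. The intervals of Bud, het and WT overlapped at this matched depth.

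Insm1 encodes a zinc finger factor that promotes endocrine differentiation. Its counts were 2 UMIs in Cys, 0 in Bud, 25 in het, 0 in fetal and 87 in WT, or 0.402 CPM in Cys, 0 in Bud, 5.69 in het, 0 in fetal and 21.6 CPM in WT. WT stood above het, and both stood above the other 3 libraries, which did not differ beyond their intervals. Fev is an ETS-domain factor of serotonin-producing neurons that is also made in endocrine progenitors. It had 3 UMIs in Cys, 0 in Bud, 89 in het, 0 in fetal and 102 in WT, with overlapping intervals for het and WT. Bud had 1 Fev UMI in a well under the minimum. Pax4, a paired-homeodomain factor of the endocrine lineage, had 2 UMIs in Cys, 18 in Bud, 43 in het, 0 in fetal and 48 in WT. Bud thus held Pax4 between the levels of het and Cys, with 4.29 CPM (2.54 to 6.77), against 9.78 CPM in het (7.08 to 13.2) and 0.402 CPM in Cys (0.0486 to 1.45).

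Chga and Chgb encode chromogranins, the acidic proteins that fill dense-core vesicles. Chga had 0 UMIs in Cys, 0 in Bud, 86 in het, 0 in fetal and 54 in WT. Chgb had 0 UMIs in the kept wells of Cys, 0 in Bud, 344 in het, 0 in fetal and 447 in WT. Both granins were thus seen in het and WT and in no kept cell of the other 3 libraries. Cys had 2 Chgb UMIs in a well under the minimum, and the WT well of the same number held 409. Tph1, the rate-limiting enzyme of serotonin synthesis in enterochromaffin cells, had 1 UMI in Cys, 0 in Bud, 19 in het, 0 in fetal and 149 in WT. Its level was 4.32 CPM in het, against 36.9 CPM in WT (31.2 to 43.4), and the intervals did not overlap. Cck encodes the hormone cholecystokinin, which acts on gallbladder and pancreas. It had 0 UMIs in Cys, 0 in Bud, 107 in het, 0 in fetal and 22 in WT.

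Ghrl, which encodes the appetite hormone ghrelin, did not follow the other products. It had 1 UMI in Cys, 294 in Bud, 1520 in het, 3 in fetal and 0 in WT, or 0.201 CPM in Cys, 70.0 in Bud, 346 in het, 0.511 in fetal and 0 in WT. Het and Bud stood apart from each other and from the rest, and the intervals of fetal, Cys and WT overlapped. Mboat4, the enzyme that adds the fatty acid to ghrelin, had 6 UMIs in Cys, 6 in Bud, 2 in het, 1 in fetal and 1 in WT. Mboat4 was too rare for a comparison. Cpe encodes carboxypeptidase E, which trims prohormones inside vesicles and is made by many cell types. It had 15 UMIs in Cys, 1 in Bud, 53 in het, 427 in fetal and 50 in WT. The fetal library was the highest, het and WT did not differ beyond their intervals, and Bud was the lowest.

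**Figure D1:**
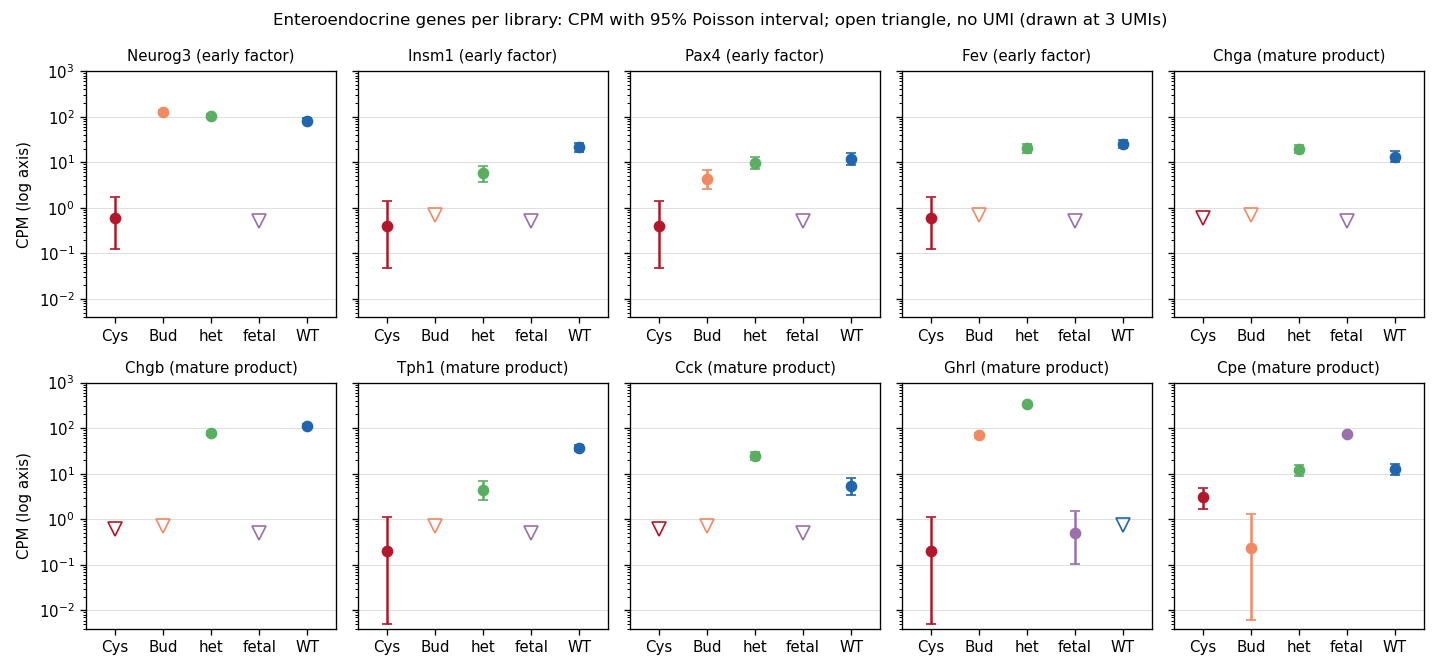
Level of each of the 10 enteroendocrine genes in the Cys, Bud, het, fetal and WT libraries, in CPM on a log axis, 1 panel per gene. Points are summed levels with 95% Poisson intervals (counting error only), and open triangles mark libraries without a UMI, drawn at the level of 3 UMIs. Neurog3 stands at 128 CPM in Bud and 82.3 in WT, while Insm1, Fev, Chga, Chgb, Tph1 and Cck have open triangles in Bud.

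With Cpe set apart, the 2 kinds of gene differed in how their UMIs were spread over cells. Among libraries with at least 10 UMIs of a gene, the cell with most UMIs held from 13.8% of the total (Insm1 in WT) to 34.8% (Fev in het) for the early factors. For the products other than Cpe, that cell held from 45.1% (Chgb in het) to 94.2% (Chga in het). The 2 ranges did not overlap. Cpe did not follow the other products, with 24.5% in het and 26.7% in Cys, inside the range of the early factors, and 42.0% in WT. Neurog3 had 16.1% of its UMIs in its largest Bud cell, 26.4% in its largest het cell and 20.8% in its largest WT cell. Chgb had 91.5% of its WT UMIs in 1 cell with 409 UMIs, and the next cell held 14. Without that cell Chgb had 38 UMIs in WT and was still called lower, at least 15.6-fold in Cys, 13.2-fold in Bud and 18.4-fold in fetal. Ghrl had 62.6% of its Bud UMIs in a cell with 184 and 87.6% of its het UMIs in a cell with 1332. Tph1 was as uneven, with 84.2% in the largest het cell and 60.4% in the largest WT cell. Cck had 88.8% of its het UMIs in 1 cell and 50.0% of its WT UMIs in another. Cpe in the fetal library was the opposite case, with 5.39% in its largest cell, 23 UMIs.

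**Figure D2:**
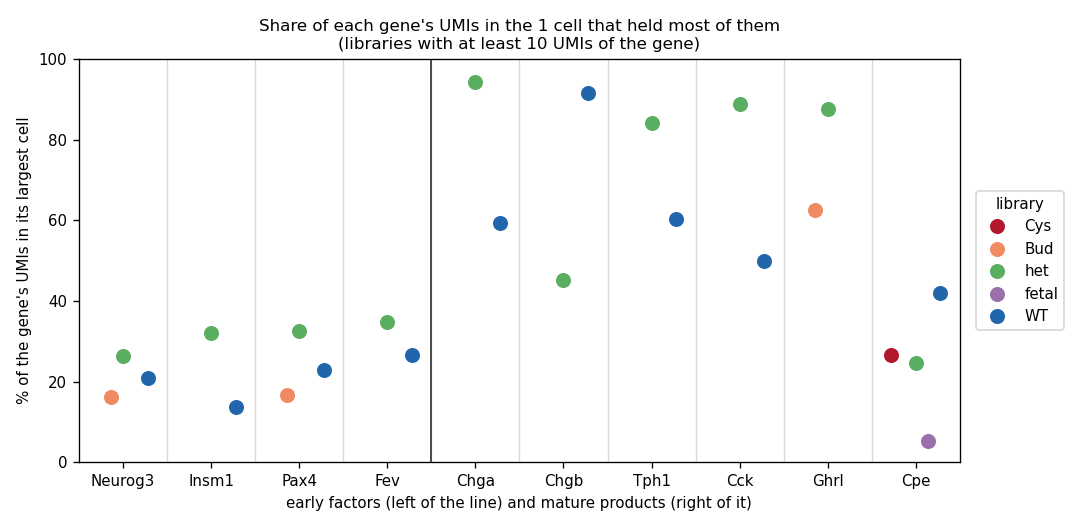
Percent of a gene's UMIs that lay in the 1 cell holding most of them, for each of the 10 genes, with 1 point per library that had at least 10 UMIs of the gene. Points of the early factors lie between 13.8% and 34.8%, those of Chga, Chgb, Tph1, Cck and Ghrl between 45.1% and 94.2%, and those of Cpe between 5.39% and 42.0%.

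To see whether factors and products shared cells, a cell was called an early cell at 3 or more UMIs summed over the 4 factors, and a product cell at 10 or more UMIs summed over Chga, Chgb, Tph1, Cck and Ghrl. Both are ranges of counts, not cell types, and Cpe was left out because other cells make it. Early cells numbered 0 of 359 in Cys, 26 of 318 in Bud, 19 of 351 in het, 0 of 371 in fetal and 20 of 302 in WT. Their share was 8.18% in Bud (5.41% to 11.8%), 5.41% in het (3.29% to 8.32%) and 6.62% in WT (4.09% to 10.0%), and these intervals overlapped. Product cells numbered 0 in Cys, 3 in Bud, 6 in het, 0 in fetal and 4 in WT. At these minimums every one of those product cells was also an early cell. With minimums of 1 and 3 UMIs, 1 of 4 product cells of Bud, 2 of 9 of het and 0 of 6 of WT were not early cells, and with minimums of 5 and 20 UMIs 1 of 2 in Bud, 1 of 5 in het and 0 of 3 in WT were not. Early cells held 95.5% of all early factor UMIs in Bud, 94.9% in het and 95.6% in WT, and 93.5% of the product UMIs in Bud, 94.7% in het and 98.4% in WT. The Bud value rested on 1 cell with 184 Ghrl UMIs and 3 of Neurog3, just at the minimum. With early cells counted from 5 UMIs, the product share was 25.5% in Bud, 84.4% in het and 98.2% in WT. Early cells were shallower than the other cells of their library, with a median of 3297 UMIs in Bud, 5581 in het and 4164 in WT, against 12446.5, 11633 and 13124.5 in the other cells of Bud, het and WT.

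Bud early cells held Neurog3 without Insm1 or Fev, while many in het and WT held them together. In Bud, 25 cells had at least 3 Neurog3 UMIs, and 0 of them had a UMI of Insm1 or Fev. In het, 8 of the 17 such cells had Insm1 and 5 had Fev. In WT, 14 of 17 had Insm1 and 6 had Fev. Neither gene was found in 8 of the 17 het cells and in 3 of the 17 WT cells. Pax4 was present in 5 of the 25 Bud cells, 7 of the 17 het cells and 10 of the 17 WT cells. Bud early cells together held 517 Neurog3 UMIs and 0 Insm1, against 436 Neurog3 and 24 Insm1 in het and 321 Neurog3 and 84 Insm1 in WT. A product UMI was found in 4 of 26 early cells of Bud, 9 of 19 of het and 10 of 20 of WT, and in Bud every such UMI was Ghrl.

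**Figure D3:**
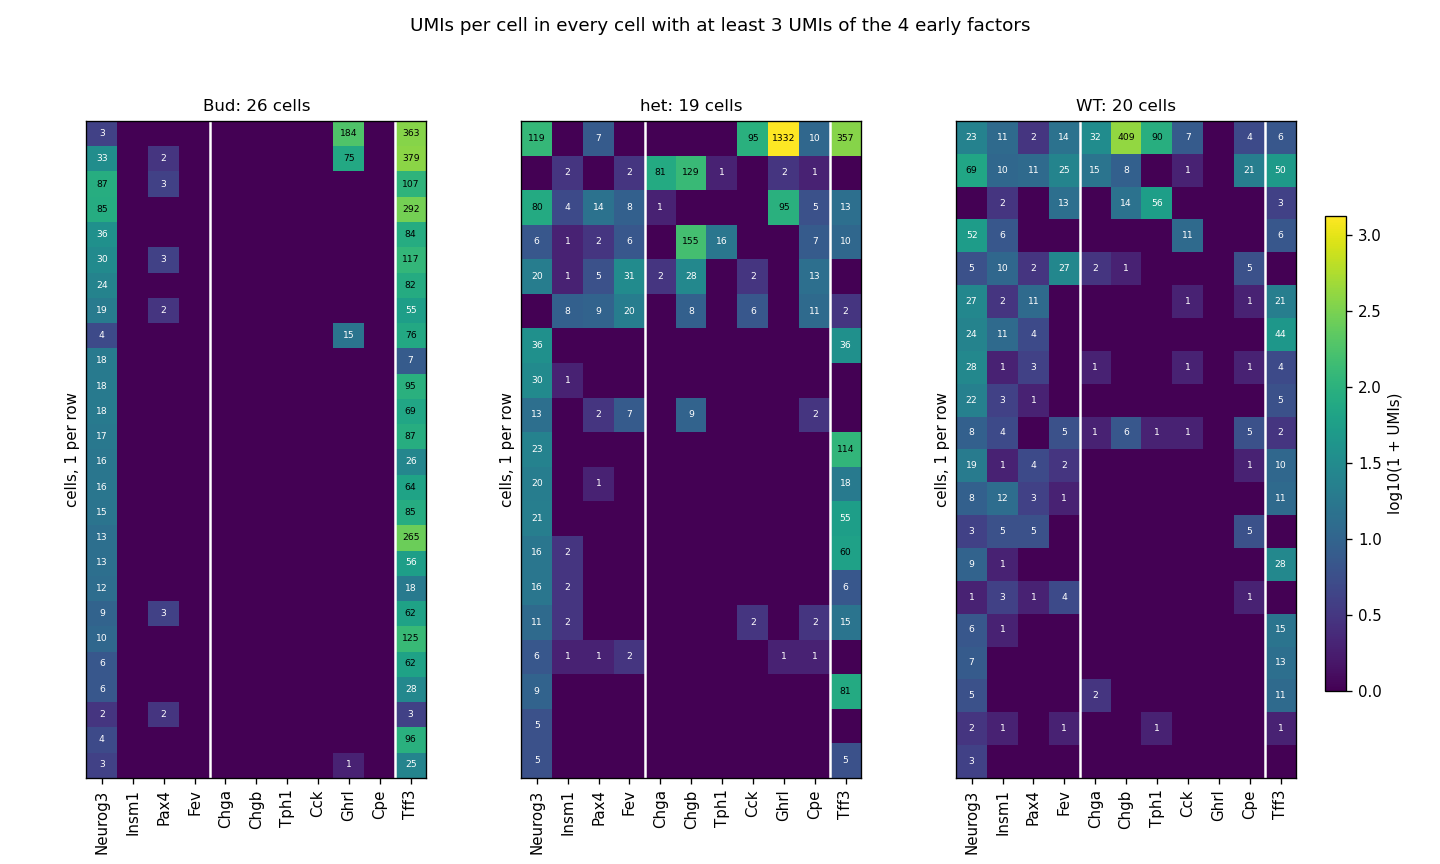
UMIs of the 10 genes and of Tff3 in each early cell, 1 cell per row, for Bud, het and WT, with the colour on a log10(1 + UMIs) scale and counts above 0 printed. White lines divide early factors, mature products and Tff3. The Insm1, Fev, Chga, Chgb, Tph1, Cck and Cpe columns are empty in the 26 Bud cells, while all of these cells hold Tff3.

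Other regulators of the lineage were read in the same cells, chosen after their values were seen. Rfx6, a factor of endocrine progenitors, had 18 UMIs in 9 of the Bud early cells, 30 UMIs in 9 of het and 28 UMIs in 9 of WT. Neurod2, a bHLH factor, had 11 UMIs in 5 early cells of Bud, 18 in 8 of het and 55 in 14 of WT. Nkx2-2, a homeodomain factor of the same lineage, had 8 UMIs in 4 early cells of Bud, 23 in 10 of het and 32 in 12 of WT. For each of these genes the Bud early cells had the fewest UMIs of the 3 libraries.

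Tff3 and Reg4 had more UMIs in the early cells of Bud than in those of het or WT. Tff3, a trefoil peptide of goblet cell mucus, had a UMI in 26 of 26 early cells of Bud, 13 of 19 of het and 16 of 20 of WT. The median was 79 Tff3 UMIs per early cell in Bud, 10 in het and 6 in WT, and early cells held 53.2% of all Tff3 UMIs of Bud, 16.2% of het and 8.89% of WT. Among cells outside the class, a Tff3 UMI was seen in 61.3% in Bud, 48.8% in het and 42.2% in WT. Muc2, the main secreted mucin, did not share this pattern, with 4 UMIs in the early cells of Bud, 3 in het and 1 in WT. Reg4, a lectin of secretory cells, had 236 UMIs in 13 Bud early cells, 56 in 3 het early cells and 0 in WT. Of these, 125 of the Bud UMIs lay in 1 cell and 49 of the het UMIs in 1 cell. Sox4, a progenitor factor, was present in 26 of 26 early cells of Bud, 15 of 19 of het and 17 of 20 of WT. Mki67, a marker of dividing cells, had 4 UMIs in Bud early cells, 7 in het and 1 in WT. Of the Bud early cells, 4 of 26 were in wells rich in Kcnq1ot1, against 0 in het and 0 in WT.

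The product cells of Bud held Ghrl and no other of the 5 products, while those of het and WT held several mixes. The Bud cell with most product had 184 Ghrl UMIs, 3 of Neurog3, 363 of Tff3 and 39 of Reg4 among 5146 UMIs. Another Bud cell had 75 Ghrl UMIs with 33 of Neurog3 and 379 of Tff3, and the third had 15 Ghrl UMIs with 4 of Neurog3. The genes with the highest level in the first of these cells relative to the rest of the Bud library were Ghrl, Tff3, the chemokine Cxcl13, pancreatic colipase (Clps), Reg4, the protease inhibitor genes Serpina1a, Serpina1e and Serpina1d, the nuclear RNA Malat1 and Fxyd3. The Serpina1 genes are near-identical copies, so their split is uncertain.

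In het, 1 cell of 12902 UMIs had 1332 UMIs of Ghrl, 95 of Cck and 119 of Neurog3, so Ghrl took 103240 CPM of that cell. Its leading genes after Ghrl, Cck and Neurog3 were Reg4, Ceacam10, Krt20, Tff3, Ms4a8a, the cell cycle inhibitor Cdkn1a and the vesicle protein Ptprn2. A second Ghrl cell had 95 UMIs with 80 of Neurog3 and 14 of Pax4. The granin cells of het were other cells. The first had 81 UMIs of Chga and 129 of Chgb with 29 of Tac1, the substance P precursor, and another had 155 of Chgb, 16 of Tph1 and 33 of Tac1. A further cell had 28 of Chgb with 31 of Fev and 20 of Neurog3, and the last had 20 of Fev, 8 of Chgb and 6 of Cck.

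In WT, the leading cell of 11424 UMIs had 409 UMIs of Chgb, 90 of Tph1, 32 of Chga, 7 of Cck, 14 of Fev, 11 of Insm1 and 23 of Neurog3. After Chgb, Tph1 and Chga, its leading genes were Aplp1, Ptprn2, the granin-like Vgf, the receptor Gfra3, Sepp1, Neurog3 and the vesicle release protein Cplx2. A second WT cell had 56 UMIs of Tph1, 14 of Chgb and 13 of Fev with 0 of Neurog3. Another had 69 of Neurog3, 25 of Fev, 21 of Cpe and 15 of Chga, and the last had 52 of Neurog3 and 11 of Cck. Tac1 had 34 UMIs in WT, all in 3 cells. Serotonin enzyme and granin thus shared the leading WT cell, and Ghrl was in none.

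Single UMIs of a hormone were read against background. Ghrl had a UMI in 77 het cells, and 73 of them had 1 or 2. In 59 of these cells it was a single UMI, and 57 of those UMIs had 1 read each. Among the 20% of het cells with the highest share of UMIs from enterocyte genes, 18 of 70 (25.7%) had a Ghrl UMI, against 59 of 281 other cells, at median depths of 15862 and 9872 UMIs. The enterocyte-rich set held the cell with 1332 Ghrl UMIs. Whether the cells with 1 or 2 UMIs made Ghrl or held background was not tested. The share of het cells with a Ghrl UMI is therefore not read as a share of cells that make it. Only 4 cells had 3 or more. In Bud, the enterocyte-rich cells had a Ghrl UMI in 1.56%, against 6.30% of the others. Neurog3 had a UMI in 4.69% of the enterocyte-rich cells and 16.5% of the other cells in Bud, at median depths of 13311 and 10571 UMIs. These shares were 7.14% and 9.61% in het, and 10.0% and 9.09% in WT, at 9710 and 12358.5 UMIs in WT. These sets were cut by share and could hold early cells, among them the het cell with 119 Neurog3 UMIs and the WT cell with 69.

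The comparison of Lkb1 -/- organoids with WT was made apart for Cys and Bud. With 1 library per group, the genotype cannot be told apart from the organoid line or the culture. Genes with 10 or more UMIs in the 2 libraries together were measured, and a measured gene was called where its CPM ratio reached 1.5 in either direction and the interval of the ratio left out 1. The comparisons with WT share that library, so their values are given side by side and no overlap between them is read.

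In Cys against WT, 9 of the 10 members were measured and 9 were called lower, where 22.0% of all 11782 measured genes were called lower and 17.6% higher. All 4 factors and all 5 measured products were among them, and Ghrl was not measured, with 1 UMI in Cys and 0 in WT. Neurog3 was 137-fold lower (46.3 to 666), Fev 42.0-fold lower (14.0 to 207), Insm1 53.7-fold lower (14.4 to 450) and Pax4 29.6-fold lower (7.77 to 252). Chgb was at least 184-fold lower, Chga at least 22.2-fold and Cck at least 9.05-fold, each against the 3 UMIs that a count of 0 allows in the Cys library. Tph1 was 184-fold lower (32.5 to 7313). Cpe was the least lowered, 4.11-fold (2.27 to 7.89), at 3.01 CPM in Cys and 12.4 CPM in WT. The median log2 ratio, with 10 CPM added, was -1.60 over the members and -0.06 over all measured genes. Setting counts of 0 at 3 UMIs left the members' median at -1.60. With cells thinned to 1000 UMIs, Pax4 and Cck fell under the minimum and were no longer measured.

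In Bud against WT, all 10 members were measured, with 2 called higher and 8 called lower, where 5.79% of 11541 measured genes were called higher and 8.67% lower. Neurog3 was 1.56-fold higher (1.36 to 1.79), at 128 CPM in Bud and 82.3 in WT. Ghrl was at least 94.2-fold higher, at 70.0 CPM in Bud and no UMI in WT. The other 3 factors were lower, Insm1 at least 30.2-fold, Fev at least 35.4-fold and Pax4 2.78-fold (1.58 to 5.07). Of the products, Chgb was at least 155-fold lower, Tph1 at least 51.7-fold, Chga at least 18.7-fold, Cck at least 7.63-fold and Cpe 52.0-fold (8.92 to 2096). The median log2 ratio was -1.18 over the members, or -1.13 with counts of 0 at 3 UMIs, and -0.04 over all measured genes. The Neurog3 call depended on the wells used: without wells rich in Kcnq1ot1 the ratio was 1.43 (1.24 to 1.65) and was not called. Without the largest cell of each gene, Ghrl in Bud still had 110 UMIs and was called, at least 35.2-fold higher. Of these 110 UMIs, 75 lay in 1 further cell and 14 in cells with 1 or 2, so the call still rested on few cells. With cells thinned to 1000 UMIs, Pax4 had 3 UMIs in Bud and 8 in WT and was not called, and Cck and Cpe fell under the minimum.

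In het against WT, 2 members were called higher, 2 lower and 6 were not called, where 8.43% of 11652 measured genes were called higher and 8.83% lower. Ghrl was at least 465-fold higher, at 346 CPM in het and no UMI in WT, and Cck was 4.47-fold higher (2.80 to 7.42). Tph1 was 8.54-fold lower (5.28 to 14.6) and Insm1 3.79-fold lower (2.41 to 6.17). The ratio was 1.25 for Neurog3 (1.08 to 1.44), 0.822 for Pax4, 0.801 for Fev, 1.46 for Chga, 0.706 for Chgb and 0.973 for Cpe. The median log2 ratio was -0.08 over the members and -0.02 over all measured genes. Several product values rested on 1 cell. Without the largest cell of each gene in each library, Cck had 12 UMIs in het and 11 in WT and its call was lost, at a ratio of 1.00 (0.405 to 2.51). On the same terms Chgb was 4.57-fold higher in het (3.21 to 6.65), with 189 UMIs in het and 38 in WT, and Chga was 4.79-fold lower, with 5 UMIs in het and 22 in WT. Of the 189 Chgb UMIs in het, 129 lay in 1 further cell. With cells thinned to 1000 UMIs, Chga was 2.67-fold higher in het and Chgb 2.15-fold higher, so the direction of both granins between het and WT was not stable. Ghrl had 188 UMIs in het without its largest cell, at least 57.5-fold higher than in WT. The Tph1, Insm1 and Ghrl calls held under both changes, and Tph1 was then 21.4-fold lower without the largest cells (6.98 to 107), with 3 UMIs in het and 59 in WT. Of these 59 UMIs, 56 lay in 1 further WT cell. Of the 188 Ghrl UMIs in het, 95 lay in 1 further cell and 87 in cells with 1 or 2. Both calls thus still rested on few cells. A Tph1 UMI was seen in 1.14% of het cells (0.311% to 2.89%) and 1.66% of WT cells (0.540% to 3.82%), and these intervals overlapped.

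In fetal against WT, the organoids differ in the stage of the gut they came from. Of the 9 measured members, 1 was called higher and 8 lower, where 29.4% of 12534 measured genes were called higher and 22.3% lower. No UMI of the 4 factors or of Chga, Chgb, Tph1 and Cck was found in the 371 fetal cells. Neurog3 was at least 161-fold lower, Fev at least 49.4-fold, Insm1 at least 42.2-fold and Pax4 at least 23.3-fold. Chgb was at least 217-fold lower, Tph1 at least 72.2-fold, Chga at least 26.2-fold and Cck at least 10.7-fold. Cpe was 5.88-fold higher (4.38 to 8.04), at 72.8 CPM in fetal and 12.4 in WT. In the fetal library Cpe had a UMI in 161 cells (43.4%) and 3 or more in 53, so it was spread over many cells that held none of the lineage factors. Thinned to 1000 UMIs per cell, 7.01% of fetal cells (4.63% to 10.1%) and 1.99% of WT cells had a Cpe UMI. The share of fetal cells with a Cpe UMI was 43.2% among those richest in enterocyte genes and 43.4% among the others, but few enterocyte gene UMIs were found in the fetal library, so this split says little about background. In WT Cpe had a UMI in 14 cells, and 88.0% of its UMIs lay in early cells. The median log2 ratio was -1.66 over the measured members, or -1.59 with counts of 0 at 3 UMIs, and 0.06 over all measured genes. With cells thinned to 1000 UMIs, Pax4 and Cck fell under the minimum.

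**Figure D4:**
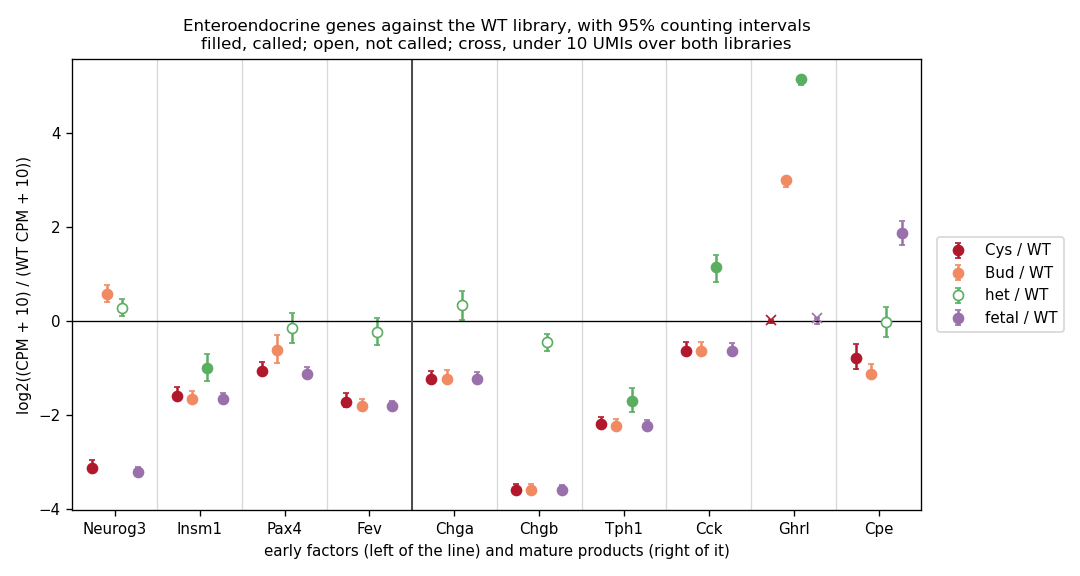
Log2 ratio of CPM, with 10 CPM added to both, of the Cys, Bud, het and fetal libraries over the WT library for the 10 genes, with 95% counting intervals. Filled points are called, open points are not, and crosses mark genes with under 10 UMIs over both libraries. Neurog3 lies at -3.12 in Cys and 0.58 in Bud, and Ghrl at 5.15 in het.

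Cys against Bud compares the 2 libraries of the same genotype. Of 4 measured members, 3 were called lower and 1 higher, where 19.5% of 11766 measured genes were called lower and 19.2% higher. Neurog3 was 213-fold lower in Cys (72.5 to 1037), with 3 UMIs in Cys and 539 in Bud. Pax4 was 10.7-fold lower (2.56 to 94.9) and Ghrl 349-fold lower (62.1 to 13821), with 1 UMI in Cys and 294 in Bud. Cpe was higher, with 15 UMIs in Cys and 1 in Bud, a ratio of 12.6 (1.95 to 532). The other 6 members had 0 to 3 UMIs in Cys and 0 in Bud and were not measured. With cells thinned to 1000 UMIs, Pax4 and Cpe fell under the minimum.

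Both Lkb1 -/- libraries were also set against het. In Cys against het, 10 of 10 members were called lower, where 21.3% of 11941 measured genes were called lower and 18.9% higher. In Bud against het, 9 were called lower and Neurog3 was not called, at a ratio of 1.25 (1.10 to 1.42), where 11.7% of 11708 measured genes were called lower and 8.94% higher. Ghrl, higher in Bud than in WT, was 4.94-fold lower in Bud than in het (4.36 to 5.62). Without the largest cell of each library Ghrl had 110 UMIs in Bud and 188 in het and was 1.63-fold lower in Bud (1.28 to 2.09). Of these UMIs, 14 in Bud and 87 in het lay in cells with 1 or 2 Ghrl UMIs. The call was not tested without such cells. With the largest cells left out, Chga and Tph1 fell under the minimum against het in both comparisons, and Pax4 was not called in Bud, with 15 UMIs in Bud and 29 in het. By summed UMIs, the direction of Ghrl in Bud thus depended on the library it was set against. Of the 1520 Ghrl UMIs in het, 1332 lay in 1 cell, and only 4 cells of Bud and 4 of het had 3 or more. The lower call against het is therefore not read as more than a difference between few cells.

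Further lists of the pathway were counted by the same rule, with members of these lists chosen by name. The counts stand beside the shares of all measured genes called against WT, which were 17.6% higher and 22.0% lower in Cys, 5.79% and 8.67% in Bud, 8.43% and 8.83% in het, and 29.4% and 22.3% in fetal. Among 10 secretory progenitor and Notch genes, 8 were measured in Cys against WT, with 7 lower and 1 higher and a median log2 ratio of -0.91. In Bud against WT 9 were measured, with 3 higher and 0 lower and a median of 0.19, and in het against WT 9 were measured, with 1 higher and 0 lower. Atoh1, the factor that opens the secretory fate, was 1.68-fold higher in Bud (1.18 to 2.42), at 21.2 CPM in Bud and 12.6 in WT. Dll1, a Notch ligand of secretory progenitors, was 2.52-fold higher in het (1.90 to 3.39). In Cys, Hes6 was 2.86-fold lower and Sox4 2.81-fold lower than in WT, while Spdef, a factor of goblet cell maturation, was 17.3-fold higher (11.3 to 27.8). In fetal against WT, 5 of 8 were lower and 0 higher.

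Among 24 other transcription factors of endocrine cells, 11 of 16 measured were lower and 3 higher in Cys against WT, and 5 of 14 were lower and 1 higher in Bud against WT. In het against WT 3 of 20 were lower and 2 higher, and in fetal against WT 10 of 16 were lower and 3 higher. Many of these genes are also made outside the lineage. Mlxipl, a carbohydrate-sensing factor, was 49.7-fold lower in Cys (15 UMIs, against 604 in WT) and 54.9-fold lower in fetal. Rcor2, a corepressor subunit, was 12.8-fold lower in Cys, 1.80-fold lower in het and 2.45-fold lower in fetal than in WT. Foxa1 was 4.43-fold higher in Cys and 1.78-fold higher in Bud than in WT.

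Of 17 other peptide hormone genes, 3 or 4 were measured in each comparison with WT. No UMI of Gcg, Gip, Pyy, Sst, Gast or Insl5 was found in any of the 5 libraries, so glucagon-like, incretin and somatostatin products were not detected at this depth. Sct, which encodes secretin, had 0 UMIs in Cys, 10 in Bud, 27 in het, 0 in fetal and 12 in WT. In Bud its 10 UMIs lay in 7 cells, in a library where Chga, Chgb, Tph1 and Cck were at 0. Tac1 had 0 UMIs in Cys, 0 in Bud, 70 in het, 0 in fetal and 34 in WT, with the same presence and absence as Chga and Chgb. Both Sct and Tac1 were called higher in het than in WT, at a ratio of 2.07 for Sct, whose interval began just above 1, and 1.89 for Tac1 (1.24 to 2.94). Of the 70 Tac1 UMIs in het, 33 lay in 1 cell and 29 in another, and 22 of the 34 in WT lay in 1 cell. In WT, 10 of the 12 Sct UMIs lay in 1 cell. The intervals do not cover such unevenness between cells. Rbp4, a retinol carrier, was 120-fold higher in fetal than in WT (33.0 to 995), with 349 UMIs in fetal and 2 in WT. Sct and Tac1 are named after their values were seen.

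Of 29 vesicle and granin-related genes, 11 of 16 measured were lower and 2 higher in Cys against WT, 8 of 15 lower and 1 higher in Bud, 7 of 17 lower and 1 higher in het, and 11 of 17 lower and 5 higher in fetal. Vwa5b2 had 0.201 CPM in Cys, 4.52 in Bud, 9.78 in het, 0 in fetal and 23.3 in WT, and so was lower than WT in all 4. Ddc, the decarboxylase that completes serotonin synthesis and is also made by enterocytes, was 2.80-fold lower in Cys and 1.70-fold lower in Bud than in WT, and had no UMI in fetal. Pam, which amidates peptide hormones, was 11.4-fold higher in Cys (6.79 to 20.8) and 17.4-fold higher in fetal (10.4 to 31.4) than in WT, in libraries with no early cell. Pcsk1, a prohormone convertase, had 0 UMIs in Cys, 16 in Bud, 0 in het, 0 in fetal and 21 in WT. It was named after its values were seen.

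Markers of the neighbouring cell types were counted too. In Cys against WT 3 of 11 measured goblet genes were higher and 8 lower, in Bud 8 were higher and 1 lower, in het 6 were higher and 0 lower, and in fetal 0 were higher and 11 lower. Paneth genes summed to 41.2 CPM in Cys, 566 in Bud, 511 in het, 728 in fetal and 205 in WT, with Mmp7 at 660 CPM in the fetal sum. Lyz1 stood at 156 CPM in Bud, 100 in het and 106 in WT, and led neither the Bud nor the het sum. Itln1 stood at 217 CPM in het, with 60.1% of its UMIs in 1 cell. Lyz1 and Itln1 are named after their values were seen. Tuft genes summed to 96.2 CPM in Cys, 8.10 in Bud, 114 in het, 233 in fetal and 20.6 in WT, but the genes behind these sums differed. Avil had 40.8 CPM and Ptgs1 53.0 CPM in Cys, and Ptgs1 had 119 CPM and Dclk1 92.2 CPM in fetal. Trpm5, the cation channel of tuft cells, had 1.00 CPM in Cys, 3.33 in Bud, 41.4 in het, 0 in fetal and 8.67 in WT. These tuft genes were named after their values were seen. Enterocyte genes, of the main absorptive cell, were lower for 14 of 14 measured and higher for 0 in Cys, lower for 10 and higher for 3 of 15 in Bud, lower for 0 and higher for 9 of 14 in het, and lower for 12 and higher for 2 of 15 in fetal. Stem cell genes were lower for 7 of 8 in Cys, 0 of 8 in Bud, 1 of 8 in het and 7 of 8 in fetal. The part of these shifts in the levels of the enteroendocrine genes was not tested.

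The genes whose levels over cells were most like that of Neurog3 were found by Pearson correlation of ln(1 + UMIs per 10000), averaged over Bud, het and WT, among 8840 genes. Gadd45a, a DNA damage and stress gene, led with 0.632 (0.625 in Bud, 0.553 in het and 0.719 in WT). It was followed by the corepressor Cbfa2t3 (0.627), Trp53i11 (0.624), Hepacam2 (0.611), Tbc1d9 (0.593), Cdc14b (0.573), Clps (0.570), the calcium channel Cacna1a (0.568), Gadd45g (0.534) and Sox4 (0.516). By Spearman correlation Hepacam2 ranked first and Clps second, Gadd45a ranked 7 and Tbc1d9 21, and 6 of the 10 genes were also among the first 10. Of the 10 named genes Clps had the widest range of Pearson coefficients between libraries, with 0.731 in Bud, 0.298 in het and 0.682 in WT. The cells share a library and its depth, and the coefficients are a description over 318, 351 and 302 cells.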

How the data were processed

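Single cells were sorted into 384-well plates and read by SORT-seq, a 3′ tag method with UMIs. The authors deposited raw UMI counts per gene and well, per the file headers and values, made with STAR 2.6.1 and featureCounts 1.5.2 on GRCm38, per the submitters' processing notes, which also name Seurat 4.1.0. The order of these steps and the treatment of strand and doublets are not given in the sources used here, and no doublet caller was run. The deposited read and transcript tables (estimated counts, corrected by the authors for UMI collisions) served as checks.

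Wells with at least 1000 UMIs without spike-ins were kept and summed per library. A gene was measured at 10 or more UMIs over both libraries and called at a ratio of at least 1.5 whose exact 95% interval excluded 1. Intervals were Poisson for levels, Clopper-Pearson for shares and conditional binomial for ratios. Log2 ratios had 10 CPM added. A count of 0 was set at 3 UMIs of that library. Named were all 10 members, up to 4 genes of each other list and comparison with the largest log2 ratio at 20 CPM or more, the 10 genes most like Neurog3 present in at least 5% of cells, and the 10 leading genes of each library's cell richest in products (at least 5 UMIs, 100 CPM added). The last 2 sets left out mitochondrial, ribosomal protein, predicted and spike-in genes. The members and lists were chosen with earlier results of these data known. Alternatives changed the minimum counts, fold, scaling, wells, depth, reference and largest cell. The steps were tested on simulated data. Python 3.11.15, numpy 2.4.6, pandas 2.3.3, scipy 1.17.1, matplotlib 3.10.9, R 4.3.3 and edgeR 4.0.16 (TMM factors only) were used. For 1 gene that the naming rule picked, the values are not reported here.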

Additional observations from a re-analysis of the deposited data

Results flagged for a closer look

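Wells under the minimum of 1000 UMIs entered no comparison, and 6 counts of members there lay above the 3 UMIs that a count of 0 allows. Neurog3 stood at 730 CPM in the low wells of Bud, with 24 UMIs in 8 of 66 wells, against 128 CPM in the kept cells. It stood at 514 CPM in the low wells of het, with 9 UMIs in 3 of 33 wells, against 103 CPM in the kept cells. It stood at 564 CPM in those of WT, against 82.3 CPM in the kept cells. Pax4 stood at 125 CPM and Chgb at 376 CPM in the low wells of WT, against 11.9 and 111 CPM in the kept cells. Ghrl stood at 343 CPM in the low wells of het, with 6 UMIs in 5 wells, against 346 CPM in the kept cells, so that value was no higher than in the kept cells.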

How the results depend on the processing

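No paired analysis was possible because each group had 1 library. In Bud against WT, without wells rich in Kcnq1ot1, 1 member was called higher in place of 2 and 0 early factors in place of 1, and a fold of 2 gave the same counts of 1 and 0. With cells thinned to 1000 UMIs, 5 members were called lower in place of 8, and 3 mature products in place of 5. With het as the reference, 0 members, 0 early factors and 0 mature products were called higher in Bud, and the log2 ratio of Ghrl turned to -2.15, where it was above 0 against WT. In het against WT, without the largest cell of each gene, 2 mature products were called lower in place of 1. In Cys against Bud, a minimum of 50 UMIs per gene and thinning each gave 0 members and 0 mature products called higher and 1 early factor called lower, in place of 1, 1 and 2. Thinning leaves few UMIs by construction. TMM scaling changed no call of a member. Early cells numbered 8 in Cys, 47 in Bud, 48 in het, 0 in fetal and 39 in WT at a minimum of 1 UMI, and 0, 21, 18, 0 and 18 at 5. Most products rested on 1 to 6 cells per library, which limits every fold given for them. Leaving out the largest cells in the comparisons with het, other minimums for the product share in early cells, and leaving out UMIs in same-numbered wells were chosen after seeing the data.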
